A study of Mus musculus with 5 samples.

Results

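The genes described here are 10 neuropeptide precursors, each found as a row of the deposited count table of 35976 genes. They are 7 precursors best known from the hypothalamus (Pmch, Hcrt, Oxt, Avp, Trh, Pomc and Ghrh) and 3 that are also abundant in amygdala neurons (Sst, Npy and Tac1). The genes were picked by symbol with results of these libraries already known, so their levels in the groups are given as a description and not tested.

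The experiment addressed what monocytes contribute to the effects of chronic stress, read in astrocytes of the basolateral amygdala. Mice in both groups carried Ccr2::CreERT2/+;DTR/+, in which a Cre recombinase under the Ccr2 locus switches on the diphtheria toxin receptor, and all received tamoxifen, 18 days of tube restraint, fear conditioning and extinction. The 3 DTx libraries came from mice given diphtheria toxin, and the 2 saline libraries from mice given saline. Ages are not in the labels, and a transgenic receptor driven through Ccr2 marks every cell that uses this locus, not monocytes alone. Amygdala tissue was digested with papain and astrocytes were taken on magnetic beads against ACSA-2, an epitope of the Atp1b2 protein, before RNA sequencing.

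Total counts were between 15961220 and 23720299 per library. Astrocyte markers were present as labelled, at 25557 to 29267 summed CPM (counts scaled by TMM to a common library size) over 12 genes in DTx libraries and at 25108 and 26383 CPM in saline libraries. Pan-neuronal markers, 12 genes, were at 736, 897 and 675 CPM in the DTx group (libraries 5A, 6A and 7A) and at 567 and 454 CPM in saline replicates 1 and 2. Xist had 3 counts over the DTx libraries and 6615 over the saline libraries, while 4 Y-linked genes had 10308 counts in DTx and 6 in saline, so the treatment and the state of the sex chromosomes cannot be told apart. Ccr2 had 54, 4 and 4 counts in the DTx group (libraries 5A, 6A and 7A) and none in either saline library, which is not the direction that loss of Ccr2-expressing cells would give, so DTx and saline below name the libraries as labelled. The series' design text counts mice, but the labels do not say how the libraries were prepared or in which batches, and a p-value here reflects only how far these 5 libraries spread. Libraries 5A and 6A were the most alike of the 10 pairs by a chi-square of their counts (14.2 per degree of freedom), and library 7A was closer to saline replicate 2 (17.7) than to libraries 5A (60.7) or 6A (58.4).

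Neuropeptides are cut from larger precursor proteins by prohormone convertases and released from dense-core vesicles of neurons. Melanin-concentrating hormone (Pmch) and the orexins (Hcrt) come from neurons of the lateral hypothalamus, whose fibres reach the amygdala. Oxytocin (Oxt) and vasopressin (Avp) are made chiefly in the paraventricular and supraoptic nuclei, and Avp also in cells of the medial amygdala and bed nucleus of the stria terminalis, which in rodents are more numerous in males. Astrocytes are not a known main source of any of the 10, and fewer neurons in a preparation and less precursor RNA per neuron cannot be told apart in bulk libraries.

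The promoters of 4 precursors are shown because the results turn on these genes: Pmch, which had the narrowest SE of the fold changes, Oxt and Avp, which are neighbours with 3565 bases between them, and Sst, which had the highest mean level per kilobase in DTx. Each is the 250 bases upstream of the start listed with RefSeq's promoters in GRCm38.p6, read 5′ to 3′ on the strand of the gene. For Oxt and Sst this start lies inside the annotated extent of the gene. Capitals mark 3 strings searched on both strands. The first is TATAAA, the TATA box. The next, TGACGTCA, is the full cAMP response element. The last is TGACC, known as a half-site of nuclear receptors.
Pmch, chr10:88090822-88091071, plus strand: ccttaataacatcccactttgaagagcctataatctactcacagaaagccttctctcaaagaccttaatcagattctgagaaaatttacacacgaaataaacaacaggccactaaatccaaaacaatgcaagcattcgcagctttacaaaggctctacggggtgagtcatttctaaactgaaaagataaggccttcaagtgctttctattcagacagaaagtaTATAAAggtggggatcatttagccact
Oxt, chr2:130575919-130576168, plus strand: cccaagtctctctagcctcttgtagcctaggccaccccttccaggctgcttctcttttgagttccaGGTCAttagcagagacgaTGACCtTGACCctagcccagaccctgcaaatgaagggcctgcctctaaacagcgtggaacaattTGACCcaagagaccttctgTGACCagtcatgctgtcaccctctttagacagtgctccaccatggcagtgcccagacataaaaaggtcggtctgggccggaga
Avp, chr2:130582589-130582838, minus strand: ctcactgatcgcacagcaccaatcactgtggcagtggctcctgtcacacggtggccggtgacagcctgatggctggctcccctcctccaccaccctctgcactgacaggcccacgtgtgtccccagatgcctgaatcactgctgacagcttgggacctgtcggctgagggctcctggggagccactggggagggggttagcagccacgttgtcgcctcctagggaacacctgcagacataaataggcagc
Sst, chr16:23890845-23891094, minus strand: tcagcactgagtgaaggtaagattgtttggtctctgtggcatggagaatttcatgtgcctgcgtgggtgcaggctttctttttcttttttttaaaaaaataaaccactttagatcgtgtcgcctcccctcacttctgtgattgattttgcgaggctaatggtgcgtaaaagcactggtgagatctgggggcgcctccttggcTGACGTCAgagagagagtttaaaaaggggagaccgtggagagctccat
The Sst window held TGACGTCA, which stood in 1.55% of 32851 RefSeq promoter windows of this length. The Oxt window held TGACC at 5 places, 4 on the gene strand and 1 on the other, where 35.2% of windows held at least 1. Pmch had TATAAA with its first base at position -27, a string found in 12.4% of windows, and none of the 3 strings was in the Avp window. The strings do not overlap each other in these windows, and a match is a description of the letters alone.

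Pmch and Hcrt, the lateral hypothalamic precursors, were higher in every DTx library than in either saline library. Pmch (GRCm38 chromosome 10, 88091072 to 88092374) had 5.55, 4.73 and 6.38 CPM in the DTx group (libraries 5A, 6A and 7A), against 1.29 and 1.39 CPM in saline replicates 1 and 2. These rest on 293 counts in DTx and 59 in saline, and the exact 95% Poisson intervals of the DTx libraries, the lowest of which began at 3.72 CPM, lay above those of the saline libraries, the highest of which ended at 1.97 CPM. The log2 fold change of Pmch was 2.04 ± 0.31 (SE, edgeR), or 4.13-fold, and it lay between 1.93 and 2.15 under 13 other settings, each library left out included.

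Hcrt (chromosome 11, 100761693 to 100762931) had 2.85, 3.73 and 3.42 CPM in the DTx group (libraries 5A, 6A and 7A), against 1.43 and 0.448 CPM in saline replicates 1 and 2. The groups did not overlap, and the 3 DTx libraries differed among themselves by at most 1.31-fold, while the 2 saline libraries stood apart from each other. The log2 fold change was 1.82 ± 0.54 (SE), and leaving out saline replicate 1 gave 2.87, while leaving out saline replicate 2 gave 1.22.

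**Figure D1:**
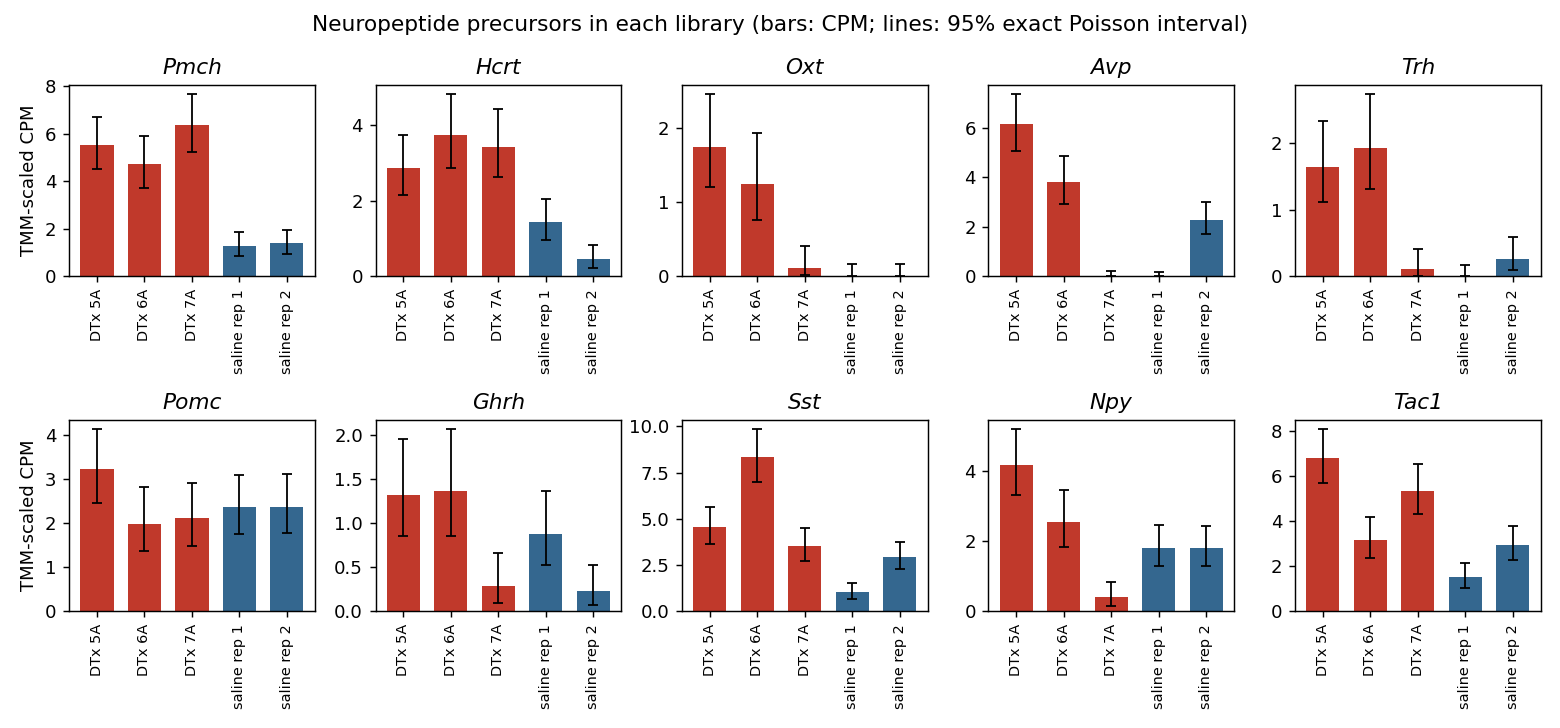
TMM-scaled CPM (vertical axes, each panel on its own scale) of the 10 precursors in the DTx group (libraries 5A, 6A and 7A, red) and saline replicates 1 and 2 (blue), with exact 95% Poisson intervals that cover counting error only. Pmch and Hcrt are high in all 3 DTx libraries, while Oxt and Trh are high in 5A and 6A alone and Avp has no count in 7A and in saline replicate 1.

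Oxt, Avp and Trh differed from this pattern, because they set DTx libraries 5A and 6A apart from library 7A. Oxt (chromosome 2, 130574519 to 130577054) had 33, 20 and 2 counts in the DTx group (libraries 5A, 6A and 7A), or 1.74, 1.24 and 0.114 CPM, against 0 counts in both saline libraries, which allow up to 0.139 and 0.134 CPM. Against 3 counts for both saline libraries together, the limit a count of 0 allows, Oxt was at least 15.3-fold higher in DTx, and at least 7.56-fold to 22.2-fold with 1 library left out. Library 7A lay under the saline floors, so the excess came from libraries 5A and 6A.

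Avp (chromosome 2, 130580620 to 130582588), which neighbours Oxt, had 6.13, 3.79 and 0 CPM in the DTx group (libraries 5A, 6A and 7A), against 0 and 2.29 CPM in saline replicates 1 and 2. The groups overlapped completely, with 116, 61 and 0 counts in DTx and 0 and 51 in saline, and the log2 fold change was 1.53 ± 2.04 (SE). Leaving out saline replicate 1 gave 0.53, and leaving out saline replicate 2, the 1 saline library with Avp, gave at least 24.3-fold. Saline replicate 2 thus held Avp at 51 counts with no count of Oxt. Trh (chromosome 6, 92242061 to 92244650), the precursor of thyrotropin-releasing hormone, had 1.64, 1.93 and 0.114 CPM in the DTx group (libraries 5A, 6A and 7A), against 0 and 0.269 CPM in saline replicates 1 and 2. Its values also overlapped between groups through library 7A, with a log2 fold change of 3.12 ± 1.45 (SE) from 64 counts in DTx and 6 in saline. Without library 7A the log2 fold change of Trh was 3.66, and without saline replicate 1 it was 2.16.

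Pomc and Ghrh, made by neurons of the arcuate nucleus, had overlapping groups. Pomc (chromosome 12, 3954945 to 3960643), the precursor of ACTH, melanocortins and beta-endorphin, had 3.22, 1.99 and 2.11 CPM in the DTx group (libraries 5A, 6A and 7A), against 2.35 and 2.38 CPM in saline replicates 1 and 2. Both saline values lay inside the DTx range, and the log2 fold change was 0.05 ± 0.36 (SE), with -0.21 without library 5A. Ghrh (chromosome 2, 157329496 to 157348725), the precursor of growth hormone-releasing hormone, had 1.32, 1.37 and 0.285 CPM in the DTx group (libraries 5A, 6A and 7A), against 0.877 and 0.224 CPM in saline replicates 1 and 2. Library 7A and saline replicate 2 were the low ones, at 5 counts each, and the log2 fold change was 0.84 ± 0.85 (SE), with 2.11 without saline replicate 1 and 0.17 without saline replicate 2.

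Of the 3 amygdala precursors, Sst and Tac1 were higher in every DTx library and Npy was not. Sst (chromosome 16, 23889573 to 23891342), the precursor of somatostatin, had 4.55, 8.33 and 3.53 CPM in the DTx group (libraries 5A, 6A and 7A), against 1.02 and 2.96 CPM in saline replicates 1 and 2. The gap between library 7A and saline replicate 2 was within counting error, with 95% intervals from 2.71 to 4.53 CPM and from 2.29 to 3.76 CPM, and the log2 fold change was 1.46 ± 0.59 (SE). Tac1 (chromosome 6, 7555061 to 7562978), the precursor of substance P and neurokinin A, had 6.82, 3.17 and 5.35 CPM in the DTx group (libraries 5A, 6A and 7A), against 1.52 and 2.96 CPM in saline replicates 1 and 2. Here library 6A was the low one of the DTx group and again close to saline replicate 2, and the log2 fold change was 1.19 ± 0.46 (SE). Without saline replicate 2, the log2 fold changes of Sst and Tac1 were 2.42 and 1.74, and without saline replicate 1 they were 0.88 and 0.79.

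Npy (chromosome 6, 49822710 to 49829507), the precursor of neuropeptide Y, had 4.18, 2.55 and 0.399 CPM in the DTx group (libraries 5A, 6A and 7A), against 1.80 and 1.79 CPM in saline replicates 1 and 2. The saline libraries were alike and lay between the DTx libraries, which differed 10.5-fold among themselves. The log2 fold change of Npy was 0.40 ± 0.84 (SE), and it turned to -0.29 without library 5A. Npy and Sst are held together by many amygdala interneurons, but in library 7A Npy was at the lowest level of the 5 libraries while Sst stayed above both saline values.

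All 10 precursors passed the filter on low counts, Oxt and Trh through DTx libraries alone, and none was called by edgeR's quasi-likelihood test at an adjusted p of 0.05, where 0.0322% of the 15532 genes tested were called, 0.0258% higher and 0.00644% lower in DTx. The 5 called genes all lay on chromosomes X and Y. DESeq2 called 1 of the precursors, Pmch, where it called 0.715% of genes, and the edgeR likelihood ratio test called Pmch and Oxt, where it called 0.644%. Limma-voom called none of the 10. The precursors were chosen with these values known, so nothing is read from the calls of any tool. For Oxt, with 0 counts in saline, a call could only be higher in DTx. Every DTx library was above every saline library for 5 of the 10 precursors as counted (Pmch, Hcrt, Oxt, Sst and Tac1), against 12.1% of all genes tested. For Oxt this rests on 2 counts in library 7A against 0, a level under the saline floors, and since the precursors were chosen with these values known nothing is read from that share. The median log2 fold change was 1.49 over the 10 with Oxt at its bound, and 0.0017 over all genes tested. Nothing is read from this median either, because the 10 were chosen with their values known. Oxt and Trh, which reached the filter in DTx libraries alone, also had to be higher there.

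**Figure D2:**
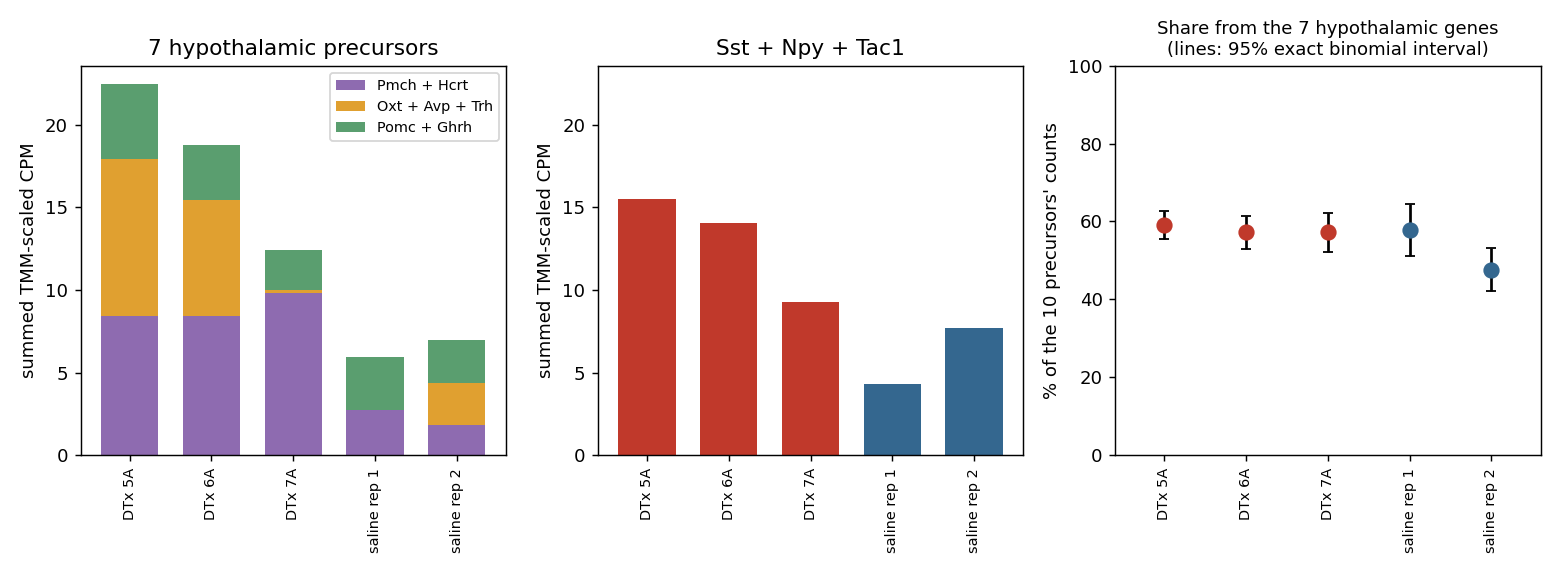
Summed TMM-scaled CPM of the 7 hypothalamic precursors, stacked by Pmch and Hcrt, Oxt, Avp and Trh, and Pomc and Ghrh (left), of Sst, Npy and Tac1 (middle, red DTx and blue saline), and the percent of the counts of all 10 precursors that came from the 7 (right, with exact 95% binomial intervals). Both sums are higher in every DTx library, and the percent is between 57.2 and 59.1 in 4 of the 5 libraries and 47.6 in saline replicate 2.

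Set against each other within a library, the 2 sets kept nearly the same proportion in 4 of the 5 libraries, while both sums were higher in DTx. The 7 hypothalamic precursors summed to 22.5, 18.8 and 12.4 CPM in the DTx group (libraries 5A, 6A and 7A), against 5.96 and 6.99 CPM in saline replicates 1 and 2, with means of 17.9 ± 5.08 CPM (SD, n = 3) in DTx and 6.47 ± 0.734 CPM (SD, n = 2) in saline. Sst, Npy and Tac1 summed to 15.5, 14.1 and 9.29 CPM in the DTx libraries in the same order, against 4.34 and 7.71 CPM in the saline libraries, with means of 13.0 ± 3.27 CPM (SD, n = 3) in DTx and 6.03 ± 2.38 CPM (SD, n = 2) in saline. The groups were separate for each sum. The ratio of summed counts, hypothalamic over Sst, Npy and Tac1, was 1.45, 1.34 and 1.34 in the DTx group (libraries 5A, 6A and 7A), against 1.37 and 0.907 in saline replicates 1 and 2. Saline replicate 1 lay inside the DTx range, and the lower mean of the saline group, 1.14 ± 0.329 (SD, n = 2) beside 1.37 ± 0.0628 (SD, n = 3) in DTx, came from saline replicate 2.

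The ratio was alike in these 4 libraries although the mix of hypothalamic precursors differed between libraries. Pmch and Hcrt gave 37.4%, 45.0% and 78.9% of the hypothalamic counts in the DTx group (libraries 5A, 6A and 7A), against 45.7% and 26.3% in saline replicates 1 and 2. Oxt, Avp and Trh gave 42.4%, 37.1% and 1.83% in the same DTx libraries, against 0% and 36.5% in the saline libraries. Pomc and Ghrh gave 20.2%, 17.9% and 19.3% in the DTx libraries, below the 54.3% and 37.2% of the saline libraries. This grouping of the 7 by nucleus was made after their values were seen.

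The summed neuronal markers were also higher in every DTx library (exact permutation p = 0.1, the smallest possible, and 0.6 adjusted over 20 lists). Of the 12 genes, 8 were without overlap, where 12.1% of all genes tested had every DTx library above every saline library. Nefm had a log2 fold change of -0.41. The list was chosen with earlier results known, so nothing is read from the count of 8. The precursor sums were also set against these markers. Per 1000 pan-neuronal counts, the hypothalamic precursors had 30.5, 20.9 and 18.4 counts in the DTx group (libraries 5A, 6A and 7A), against 10.5 and 15.4 in saline replicates 1 and 2. The groups stayed separate, at 1.80-fold on average in place of 2.76-fold by CPM. Sst, Npy and Tac1 had 21.1, 15.7 and 13.8 counts per 1000 pan-neuronal counts in the DTx libraries, against 7.65 and 17.0 in the saline libraries, and the groups overlapped. Pmch alone had 7.55, 5.27 and 9.45 per 1000 in the DTx libraries, against 2.28 and 3.06 in the saline libraries, and stayed separate.

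Per kilobase of annotated exon, which allows levels to be compared between genes, Sst and Pmch led in DTx at 7.59 ± 3.51 and 7.41 ± 1.10 CPM per kb (SD, n = 3). Avp, Hcrt and Npy followed at 5.73, 4.45 and 4.20 CPM per kb, then Oxt, Pomc, Tac1 and Ghrh between 1.93 and 1.48, and Trh last at 0.886. In saline the order began with Npy at 3.17 ± 0.00933 and Sst at 2.76 ± 1.91 CPM per kb (SD, n = 2), Pmch came after Npy, Sst, Avp and Pomc at 1.79 ± 0.0915, and Trh and Oxt came last. The ranges of neighbours in either order overlapped throughout, except for Tac1 and Trh in saline. Exon lengths were those of GENCODE M21, which may differ from the annotation that the authors counted on.

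A list of 16 other hypothalamic precursors was also chosen with results of these libraries known, so it is no independent support. Of the 16, 4 had enough counts to be tested and 0 were called by edgeR. Gal, Cartpt and Crh reached the count filter in DTx libraries alone and therefore had to be higher there, so no count or median over the 4 is read. Gal, the galanin precursor, had 4.49, 8.33 and 1.14 CPM in the DTx group (libraries 5A, 6A and 7A), against 0.139 and 0.403 CPM in saline replicates 1 and 2, with a log2 fold change of 4.06 ± 1.01 (SE, edgeR adjusted p = 0.761). Cartpt, the precursor of the CART peptides, had 3.54, 2.11 and 0.797 CPM in DTx against 0.231 and 0.0897 CPM in saline, with a log2 fold change of 3.70 ± 0.84 (SE, edgeR adjusted p = 0.759). Both were highest in libraries 5A and 6A, like Oxt, Avp and Trh, and both were also above saline in library 7A.

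Crh, the precursor of corticotropin-releasing hormone, which central amygdala neurons also make, had 9, 15 and 10 counts in the DTx group (libraries 5A, 6A and 7A), against 1 and 2 counts in saline replicates 1 and 2. The ratio of summed counts was 9.48 (exact 95% interval 2.98 to 48.2, counting error only). Adcyap1, the precursor of PACAP, had 3.91, 1.49 and 1.88 CPM in DTx and 0.877 and 0.672 CPM in saline (edgeR adjusted p = 0.789). Summed over all 16 genes the level was 13.6, 14.4 and 5.01 CPM in DTx and 1.62 and 1.66 CPM in saline, an exact two-sided permutation p of 0.1 that is the smallest the 10 regroupings of 5 libraries allow, and 0.6 adjusted over 20 gene lists. Of the 16, 10 had fewer than 10 counts over the 5 libraries.

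Precursors known from amygdala and interneurons were tested for 7 of 11 genes, and 0 were called by edgeR. Of the 7, 2 reached the count filter in DTx libraries alone, and 2 (Nts and Pnoc) were without overlap between groups, where 12.1% of all genes tested had every DTx library above every saline library. Nts, the neurotensin precursor, had 2.59, 2.30 and 1.48 CPM in the DTx group (libraries 5A, 6A and 7A), against 0.0923 and 0.941 CPM in saline replicates 1 and 2 (edgeR adjusted p = 0.789). Penk, the enkephalin precursor, had 12.6, 5.66 and 2.11 CPM in DTx, against 1.48 and 2.78 CPM in saline (edgeR adjusted p = 0.797). Library 7A lay between the saline libraries for Penk and above both for Nts. Pnoc, the nociceptin precursor, was without overlap at 1.27, 2.11 and 0.797 CPM in DTx against 0.416 and 0.672 CPM in saline, while Tac2, the neurokinin B precursor, overlapped at 1.16, 2.74 and 0.399 CPM in DTx against 0.231 and 0.538 CPM in saline. The summed level of the 11 genes was 31.9, 23.5 and 10.03 CPM in DTx and 8.59 and 9.41 CPM in saline (exact permutation p = 0.2).

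**Figure D3:**
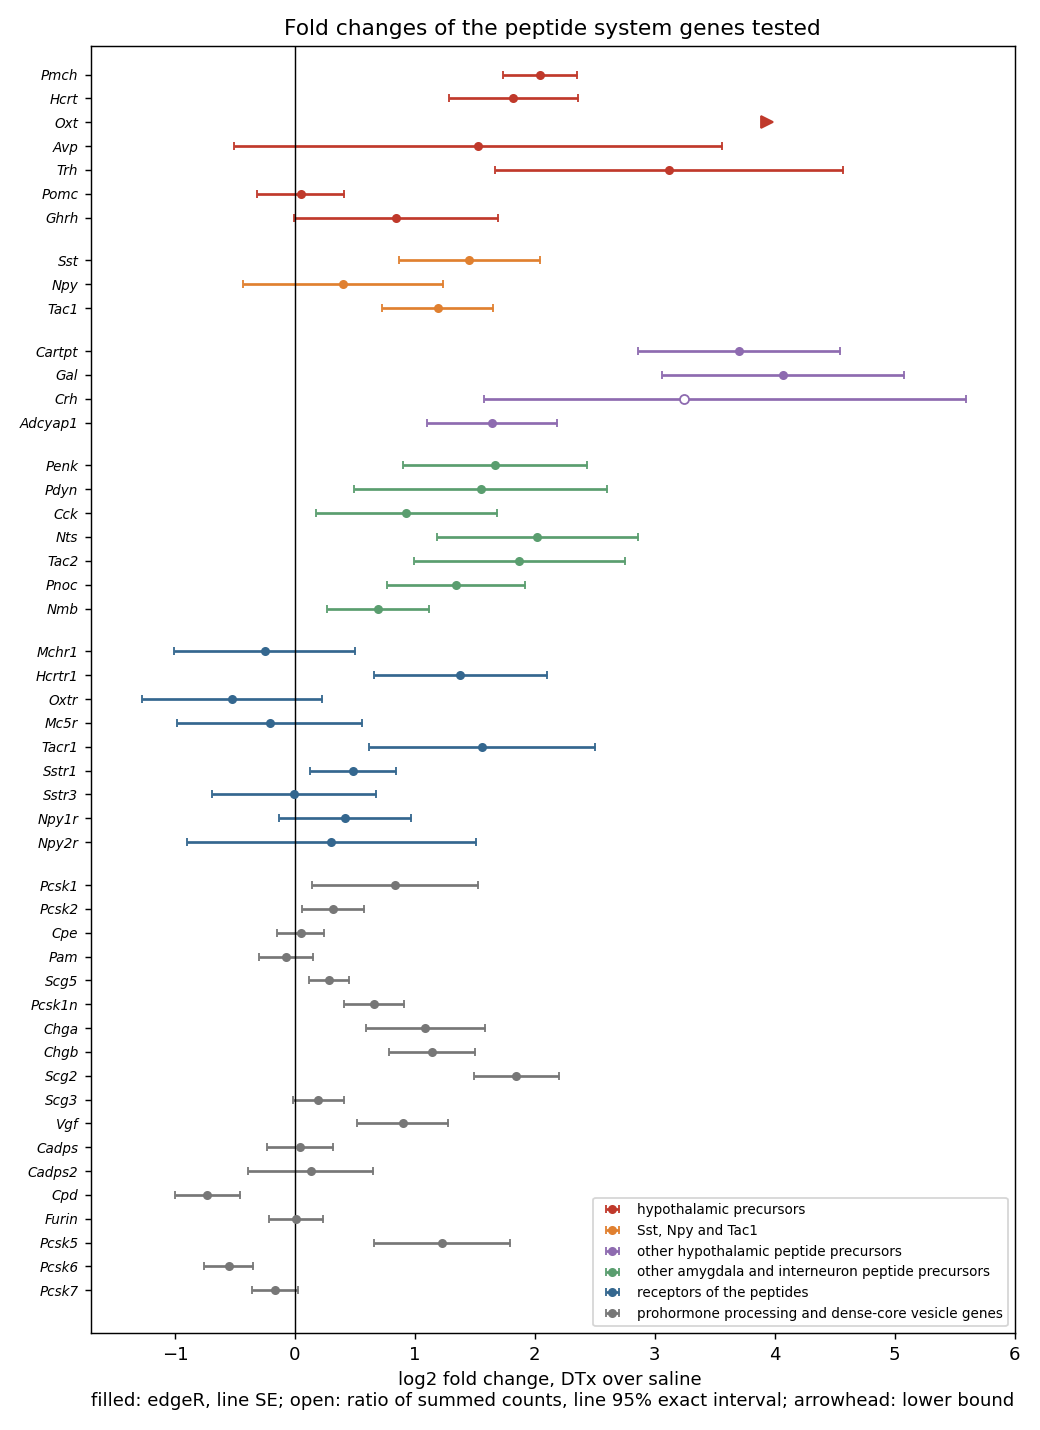
Log2 fold changes, DTx over saline, of the tested genes of the peptide system: the 7 hypothalamic precursors, Sst, Npy and Tac1, other precursors, receptors and processing genes. Filled points are edgeR estimates with their SE, the open point (Crh) is the ratio of summed counts with its exact 95% interval, and the arrowhead (Oxt) is the lower bound at a floor of 3 counts. Receptors and processing genes lie on both sides of 0, the precursors shown lie to its right, several of which reached the count filter in DTx libraries alone, and 0 of the genes shown passed the threshold.

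Receptors for the 10 peptides were sparse in these libraries, and 9 of 28 listed could be tested, 5 with a positive and 4 with a negative log2 fold change and 0 called. Of the 9, Hcrtr1 and Tacr1 reached the count filter in DTx libraries alone. Sstr1, a somatostatin receptor, had 2.33, 3.86 and 2.79 CPM in the DTx group (libraries 5A, 6A and 7A), against 2.03 and 2.24 CPM in saline replicates 1 and 2 (edgeR adjusted p = 0.819). Hcrtr1, an orexin receptor, had 0.951, 1.06 and 0.342 CPM in DTx, against 0.416 and 0.179 CPM in saline (edgeR adjusted p = 0.797). Sstr1 was the 1 receptor of the 9 without overlap between groups, where 12.1% of all genes tested had every DTx library above every saline library. Nothing is read from that 1 gene, and the difference of its means was close to the SD of the DTx libraries, 0.784 CPM. Tacr1, the substance P receptor, and Npy1r, a neuropeptide Y receptor, had log2 fold changes of 1.56 ± 0.94 and 0.42 ± 0.55 (SE), with edgeR adjusted p of 0.803 and 0.891. Avpr1b, Avpr2, Ghrhr and Npy6r had no count in any library. Summed over the 28 receptors the level was 12.8, 14.1 and 9.57 CPM in DTx and 10.1 and 7.53 CPM in saline (exact permutation p = 0.3).

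Of 18 genes that process and store prohormones, all were tested and 0 were called, where 0.0322% of all genes tested were called. There were 14 with a positive and 4 with a negative log2 fold change, and the median was 0.24, beside 0.0017 over all genes tested. Every DTx library was above every saline library for 7, against 12.1% of all genes tested, and below for 2, against 8.99%. Nothing is read from these counts, because the list was chosen with earlier results known. Scg2, the granin secretogranin II, had 36.9, 31.6 and 16.6 CPM in the DTx group (libraries 5A, 6A and 7A), against 7.85 and 7.93 CPM in saline replicates 1 and 2, a log2 fold change of 1.85 ± 0.35 (SE, edgeR adjusted p = 0.759). Chgb, chromogranin B, had 18.5, 14.5 and 9.00 CPM in DTx, against 7.71 and 4.98 CPM in saline (edgeR adjusted p = 0.789). Both granins followed the order of the summed hypothalamic precursors among the DTx libraries. Pcsk6 and Cpd, a proprotein convertase and a carboxypeptidase that many cell types use, were lower in every DTx library, at 20.2, 19.8 and 27.1 CPM and at 81.4, 53.4 and 95.3 CPM in DTx, against 37.2 and 28.5 CPM and 147 and 107 CPM in saline (edgeR adjusted p = 0.789 for both). The summed level of all 18, at 14177 to 15086 CPM in DTx and 13673 and 14319 CPM in saline (exact permutation p = 0.3), was mostly Cpe, the carboxypeptidase that trims prohormone fragments, with 13138 to 13759 CPM in DTx and 12689 and 13231 CPM in saline.

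Several genes of hypothalamic identity were highest in libraries 5A and 6A, as Oxt, Avp and Trh were. Of 16 hypothalamic transcription factors, 11 were tested and 0 were called by edgeR. Of the 11, 5 reached the count filter in DTx libraries alone, Otp, Nkx2-4 and Six6 among them, so no count of directions is read. Otp, which specifies oxytocin and vasopressin neurons and is also used in the medial amygdala, had 12, 29 and 8 counts in the DTx group (libraries 5A, 6A and 7A), against 1 and 1 in saline replicates 1 and 2, a ratio of 20.5 (exact 95% interval 5.38 to 174). Nkx2-4 had 100, 31 and 15 counts in DTx against 0 and 3 in saline, a ratio of 40.7 (exact 95% interval 13.7 to 199.7). Six6, Rax and Nkx2-1, chosen after their values were seen, had 3.59, 0.933 and 0 CPM, 17.1, 5.91 and 0.285 CPM, and 9.30, 7.84 and 1.25 CPM in the DTx group (libraries 5A, 6A and 7A), against 0 and 0.0448 CPM, 0.554 and 0.134 CPM, and 0 and 0.762 CPM in saline replicates 1 and 2. Libraries 5A and 6A were the high ones for all 3, and library 7A was close to the saline libraries for Six6 and Rax.

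Rax also marks tanycytes, the glia that line the third ventricle, and so does Gpr50, at 17.4, 6.72 and 0.171 CPM in DTx against 0.0923 and 0 CPM in saline. Gpr50 reached the count filter in DTx libraries alone and therefore had to be higher there. The sum of the tanycyte list overlapped between groups, at 169, 75.5 and 107 CPM in DTx and 113 and 155 CPM in saline (exact permutation p = 0.6). Of its 9 genes, 7 had a positive and 2, Dio2 and Crym, a negative log2 fold change. Every DTx library was above every saline library for 4, against 12.1% of all genes tested, and below for 1, against 8.99%. Nothing is read from these counts, because the list was chosen with earlier results known. The mean of its genes' log2 CPM, Rax and Gpr50 included, was however 1.37 higher in DTx. Dio2, a deiodinase, made up 28.1 to 80.9 CPM of the list's sum in DTx and 93.0 and 97.8 CPM in saline. Crym, a thyroid hormone-binding protein of the same list, named after its values were seen, had 8.99, 7.84 and 0.456 CPM in DTx. In saline it had 0.0462 and 39.6 CPM, the second a part of the 155 CPM summed in saline replicate 2. Its high level in saline replicate 2, and its near absence from library 7A and saline replicate 1, went with the presence and absence of Avp in all 5 libraries. Foxb1, a mammillary and thalamic factor also chosen after its values were seen, overlapped between groups at 19.9, 16.9 and 11.3 CPM in DTx against 17.0 and 11.3 CPM in saline. The part of these regional genes in the precursor levels was not tested.

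**Figure D4:**
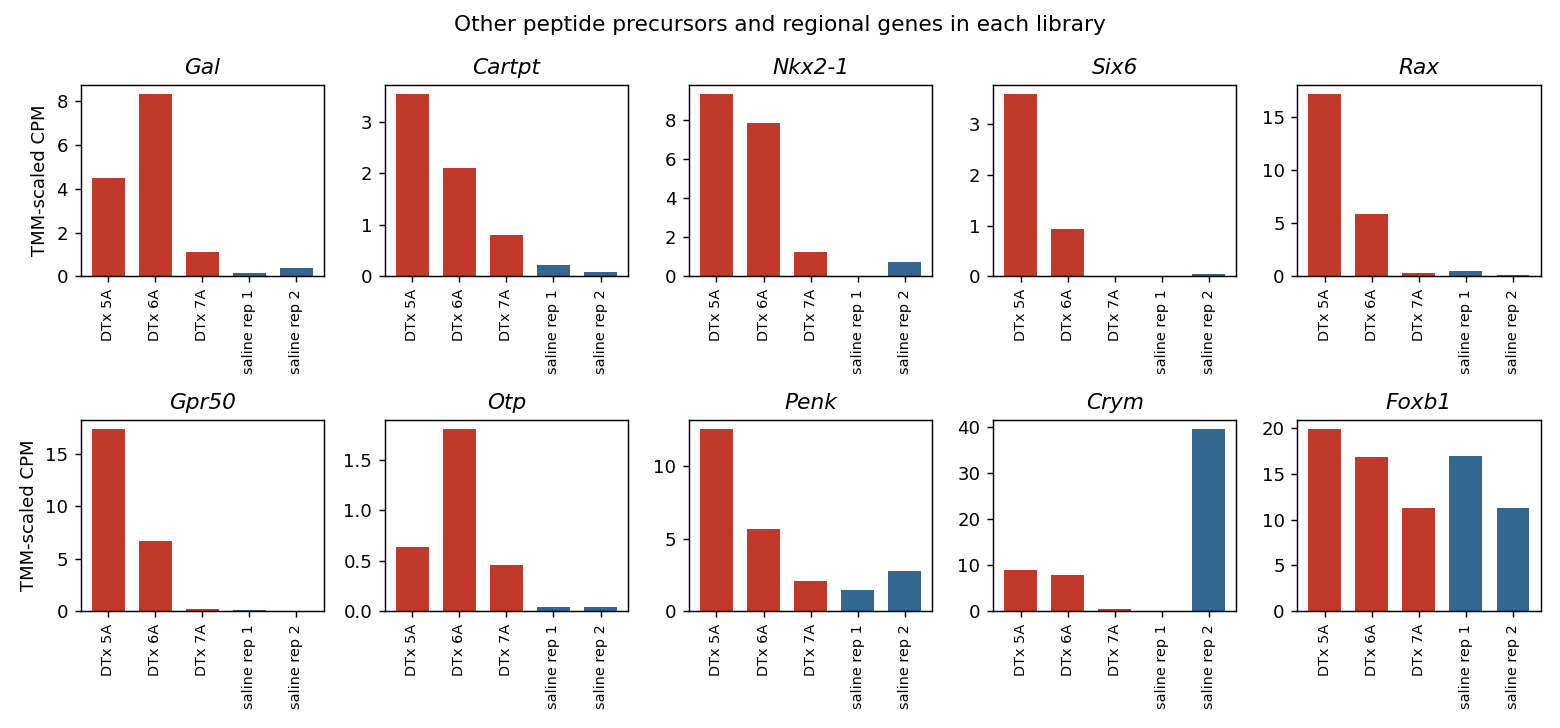
TMM-scaled CPM (vertical axes, each panel on its own scale) of 10 further genes in the DTx group (libraries 5A, 6A and 7A, red) and saline replicates 1 and 2 (blue). Gal, Cartpt, Nkx2-1, Six6, Rax, Gpr50 and Otp are highest in libraries 5A or 6A, Crym is highest in saline replicate 2, and Foxb1 overlaps between groups.

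Markers of other cells that a dissection or bead selection could carry were listed beside the precursors, and 0 genes of these lists were called. Interneuron genes summed to 49.4, 112 and 71.6 CPM in DTx and 44.6 and 53.4 CPM in saline, with Gad1 and Gad2, the GABA-synthesising enzymes, highest in library 6A, where Sst was also highest. Of the 7 interneuron genes tested, 5 had a positive and 2, Pvalb and Adarb2, a negative log2 fold change. Every DTx library was above every saline library for 3, against 12.1% of all genes tested. For 1, Pvalb, every DTx library was below, against 8.99%, at 7.51, 7.77 and 10.4 CPM in DTx and 10.7 and 14.0 CPM in saline. Slc17a6, the glutamate transporter of subcortical neurons, was at 19.9, 12.1 and 8.37 CPM in DTx and 12.1 and 3.72 CPM in saline, and pallial glutamatergic genes overlapped between groups in sum (exact permutation p = 0.6). Subpallial and central amygdala genes were at 198, 192 and 287 CPM in DTx and 204 and 244 CPM in saline, and did not follow the precursors. Pituitary hormones were uneven, with Cga, chosen after its values were seen, at 96 counts in library 5A and 0 in the 4 others, and Lhb at 41, 1 and 0 counts in DTx and 98 and 2 counts in saline. Their part in the precursor levels was not tested.

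Glial and vascular lists differed in which libraries were high. Ependymal genes were at 159, 30.7 and 23.6 CPM in DTx and 255 and 19.8 CPM in saline, choroid plexus genes at 88.5, 104 and 28.0 CPM in DTx and 37.5 and 25.7 CPM in saline, and endothelial genes at 7.61, 7.15 and 17.8 CPM in DTx and 8.91 and 10.3 CPM in saline. Oligodendrocyte genes were at 42409, 43735 and 89461 CPM in DTx and 59499 and 91437 CPM in saline, and their precursors at 428, 604 and 823 CPM in DTx and 623 and 822 CPM in saline. Libraries 5A and 6A, highest in Oxt, Avp and Trh, were the lowest in oligodendrocyte genes and the highest in microglia genes and in the choroid plexus sum. Clic6 alone made up 67.8, 92.7 and 12.6 CPM of the choroid plexus sum in DTx and 9.33 and 8.29 CPM in saline. Otx2 of that list was lower in every DTx library, at 9.94, 4.91 and 10.1 CPM against 19.7 and 13.8 CPM in saline. Of the 5 choroid plexus genes tested, 3 had a positive and 2 a negative log2 fold change. Every DTx library was above every saline library for 1 of them, against 12.1% of all genes tested, and below for 1, against 8.99%. Microglia genes were at 457, 337 and 282 CPM in DTx and 131 and 285 CPM in saline, and monocyte and macrophage genes at 72.4, 12.3 and 28.7 CPM in DTx and 10.3 and 15.9 CPM in saline. The part of these cells in the precursor levels was not tested.

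The genes whose levels ran most like those of Pmch and Sst, the most abundant precursor of each set, were found among 13935 genes with a mean of at least 1 CPM. Likeness was the root mean square difference of centred log2 CPM over the 5 libraries. For Pmch the nearest were Gm22146 (0.29), Dgkk, a diacylglycerol kinase (0.32), and Gm35612 (0.33). For Sst they were B2m, the light chain of MHC class I (0.16), Icosl (0.19) and Serpinb5 (0.21). None of the 7 precursors with a mean of at least 1 CPM was among the 3 nearest genes of another. Oxt, Trh and Ghrh, with means under 1 CPM, were not in the search and could not appear. With 3 places per precursor among 13935 genes, nothing is read from this absence.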

How the data were processed

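RNA of bead-selected amygdala astrocytes was sequenced, and the deposited values are raw counts per gene that the authors made; fastp 0.23.2, STAR 2.7.5c, featureCounts 2.0.1 and edgeR 3.42.4 on GRCm38 (mm10) are named in the submitters' processing notes. For the annotation and the strand setting, the entry is: not given in the sources used here. The saline columns were matched to sample titles, and the DTx columns were assigned to their group by the column names, which say DTX. The table names the 3 DTx columns 5A, 6A and 7A, numbers found in no label. A further column of per-sample values, 1 in all, has no sample title and was not used. Its name says Ctrl, as the names of the saline columns do, so a possible further saline library is not analysed here. The DTx columns were kept on their names alone, and this column was not.

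Counts were scaled by TMM and tested for DTx over saline with edgeR 4.0.16 (robust quasi-likelihood F test, filterByExpr at 10 counts, Benjamini-Hochberg over all 15532 genes that passed, threshold 0.05), in R 4.3.3. DESeq2 1.42.0, limma-voom 3.58.1, the edgeR likelihood ratio test, other filters and scalings, and each library left out were alternatives. The procedure was tested on simulated data. Intervals are at 95% and cover counting error only, and a count of 0 was set to a floor of 3 counts. The precursors and gene lists were chosen with earlier results of these data known. From each list the tested genes with the smallest edgeR p were candidates to be named, up to 4 for peptide, receptor and processing lists and up to 2 for the others. Exon lengths came from GENCODE M21, and positions and promoters from RefSeq GRCm38.p6, which listed a promoter for all 10 precursors.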

Additional observations from a re-analysis of the deposited data

How the results depend on the processing

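edgeR called 5 genes in all, 9 with no filter beyond 1 count, 100 by its likelihood ratio test and 5 to 13 with 1 library left out (13 without library 7A), while DESeq2 called 111. At an unadjusted p under 0.05 edgeR had 976 genes. The mean log2 difference of the ratio of hypothalamic to Sst, Npy and Tac1 counts, DTx minus saline, was 0.30. It was 0.012 without Pmch, 0.75 from mean log2 CPM and between -0.000196 (without saline replicate 2) and 0.60 (without saline replicate 1) with 1 library left out. With settings chosen after seeing the data it was 0.86 for Pmch and Hcrt only and -0.93 for Pomc and Ghrh only. For Oxt, Avp and Trh only, which had no count in saline replicate 1, it has no log per library, and the log2 ratio of group sums, a different quantity, differed by 1.02. Per 1000 pan-neuronal counts, also chosen after seeing the data, the log2 fold change of the hypothalamic sum was 0.85 in place of 1.47 by CPM. That of Sst, Npy and Tac1 was 0.45 in place of 1.10 by CPM. With 1 library left out, the CPM value for Sst, Npy and Tac1 lay between 0.75 and 1.58, and libraries were not left out for the values per 1000. From mean log2 CPM, the log2 differences were 0.91 for other hypothalamic precursors (2.75 from sums), 0.37 for processing genes (0.062), 1.37 for tanycyte genes (-0.19) and 0.29 for choroid plexus genes (1.22). With 1 library left out, log2 fold changes ran from -1.66 to 0.79 for pituitary hormones, from 0.15 to 1.85 for Slc17a6, from -2.34 to 1.84 for ependymal genes and from 0.33 to 1.45 for microglia genes. The causes were not tested. No paired analysis was possible because the DTx columns carry numbers that no label gives. The few counts of the precursors, from 0 to 134 per library, limit the precision of their values, and 3 against 2 libraries cannot give an exact two-sided p below 0.1.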
